A study of Mus musculus with 18 samples.

Results

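The 33 genes described here encode the transporters and enzymes that take glucose to pyruvate and lactate, the kinases that restrain pyruvate dehydrogenase, and core genes of the response to low oxygen. The list was set by gene name, and 31 of the 33 had a probe set that carries a single gene symbol, among 19505 genes measured in all. Eno1 and Gpi1 were not analysed here. Each of the 31 genes was read by 1 probe set, so values are log2 units of that probe set and are compared only within a gene. The RNA came from C57Bl/6J mice, and the labels' characteristics name no mutation or drug in any group. Fetal liver (FL) cells were taken from E13.5 embryos and adult bone marrow (BM) cells from mice 3 to 12 months old. From each source, LSK cells were sorted with Cd150 and Cd48 into LT-HSC and ST-HSC, the stem cells of long-lasting and of brief self-renewal, and MPP, multipotent progenitors. LSK stands for a surface phenotype (lineage-negative, Sca-1-positive, Kit-positive). There were 3 arrays for each of the 6 groups, 18 in all, lettered a to c, each made from 2 ng of total RNA with 10 PCR cycles before in vitro transcription.

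Several limits of these groups bear on every value. The sources used here do not give the exact gates, and the adult group spans ages. Nothing in the labels ties an array to its own animal, so the p-values measure only the spread between arrays, which may be technical. A free-text note on each sample conflicts with its title: it speaks of transplanted marrow, with a guide against Ezh2 (sgEzh2) in 4 FL samples (MPP a and b, ST-HSC a, LT-HSC a) and a control guide (sgLuc) in the others. Groups here follow the titles and source names. In sorted pools such as these, fewer cells of a type and less RNA per cell cannot be told apart.

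Glycolysis splits glucose into pyruvate and yields ATP without oxygen, and lactate dehydrogenase then turns pyruvate into lactate. Pyruvate dehydrogenase kinases keep pyruvate out of the mitochondrial cycle. The transcription factor subunit Hif1a, which the prolyl hydroxylases Egln1 and Egln3 mark for destruction when oxygen is present, switches on many of these genes, and adult marrow stem cells are known for a reliance on glycolysis.

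The sort was visible in its own markers. Slamf1, which encodes Cd150, was higher in LT-HSC than in MPP by 2.60 in FL and 2.41 in BM, and Cd48 was lower by -2.57 and -1.94. Transcripts of other cells differed by source. The mean of 8 neutrophil granule genes lay between 6.19 and 7.58 on the FL arrays and between 10.5 and 13.0 on the BM arrays, and 8 of 8 were lower in FL. The mean of 8 immediate early genes lay at 8.53 to 9.34 in FL and 9.95 to 11.9 in BM, with 8 of 8 lower in FL. The mean of 7 hepatocyte genes lay at 7.84 to 9.74 in FL and 7.46 to 7.96 in BM, with 3 of 7 higher in FL and 1 lower. The mean of 7 macrophage genes lay at 6.30 to 6.58 in FL and 6.95 to 8.48 in BM, without overlap, and 6 of 7 were lower in FL. The mean of 5 measured B cell genes lay at 7.33 to 8.46 in FL and 8.36 to 10.1 in BM, with 4 of 5 lower in FL. The mean of 5 measured megakaryocyte genes lay at 7.97 to 8.92 in FL and 8.34 to 10.5 in BM. Of these, 2 were lower in FL in the average of the populations, and 4 in LT-HSC alone. Of 7 measured G2M genes, 6 were higher in FL, and of 7 S phase genes 5 were. In 4 arrays (FL LT-HSC b, BM ST-HSC b and c, BM LT-HSC c) the interquartile range over all genes was 2.61 to 2.71, against 2.98 to 3.18 in the others.

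The first question was which of these genes differed between fetal and adult cells when the 3 populations were averaged. A gene is called here when its adjusted p is under 0.05 in a limma fit of all 18 arrays, with Benjamini-Hochberg adjustment over the 19505 genes. Differences are log2 FL minus BM, followed by the standard error. Of the 31 genes, 14 were called higher in FL, or 45.2%, where 15.9% of all genes tested were called higher. Another 5 were called lower, or 16.1%, against 9.26% of all genes. The median difference over the 31 genes was 0.281, against 0.0114 over all genes. The changes were small: 3 of the 19 called genes, Slc2a1, Hk3 and Vegfa, reached a fold of 1.5. The transporter Slc2a1, the enzymes Aldoa, Tpi1, Gapdh, Pgk1, Pgam1, Pkm and Ldha, and Hif1a were on the higher side, and isozymes of hexokinase, phosphofructokinase and aldolase were called in opposite directions. The neutrophil, macrophage, B cell and immediate early genes listed above were mostly lower in FL beside the 5 lower genes, and the S phase and G2M genes higher beside the 14 higher ones. Their part in these calls was not tested.

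**Figure D1:**
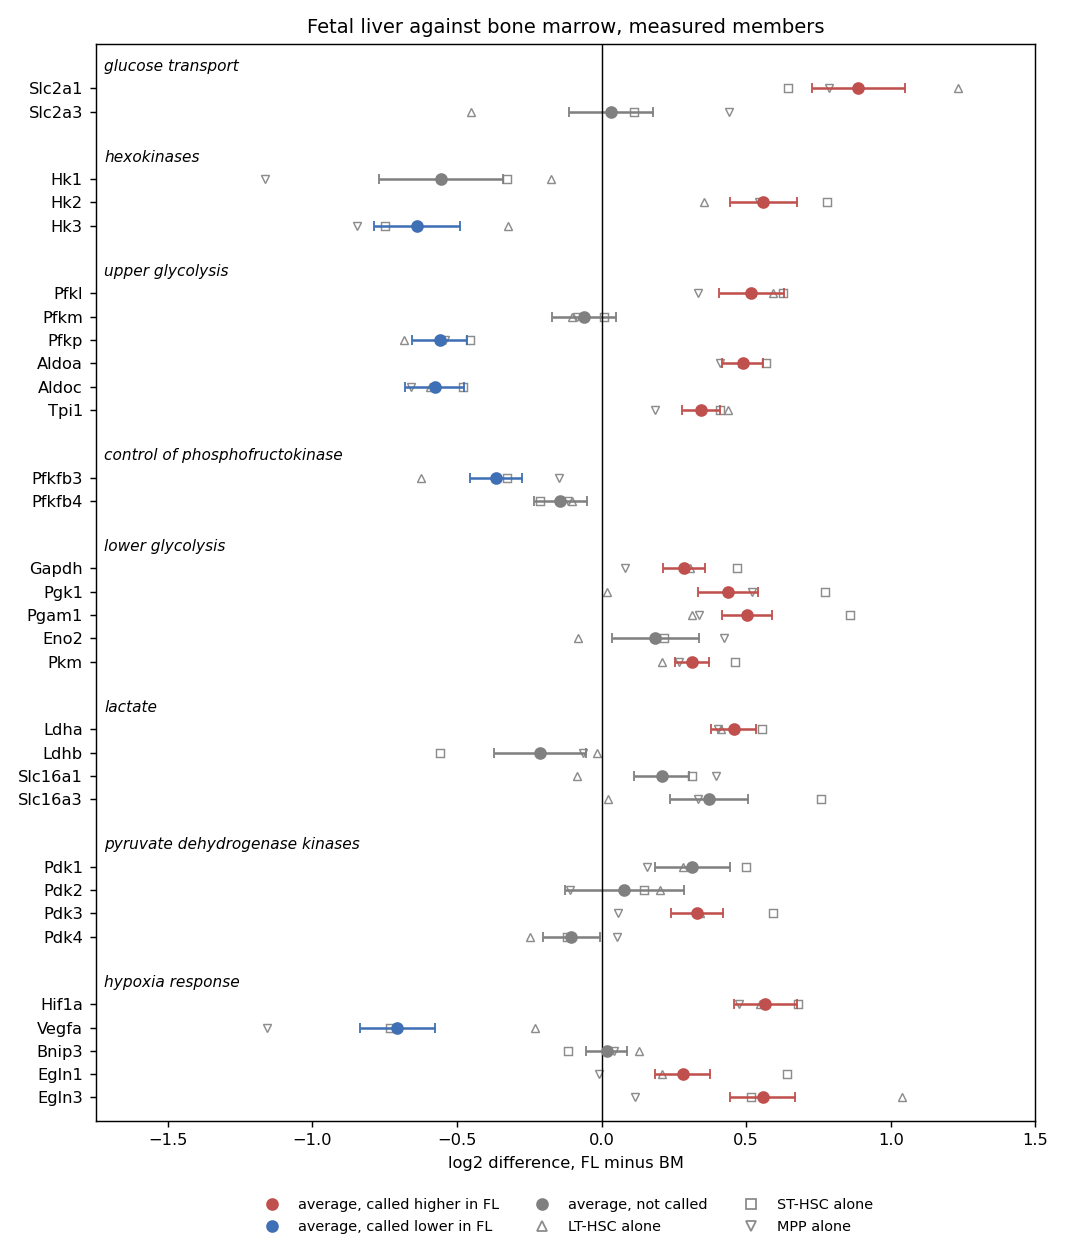
Log2 difference between fetal liver and bone marrow for the 31 measured genes, grouped by role. Filled circles with bars give the average over the 3 populations and its standard error from the 18 arrays, coloured by call, and open symbols give each population alone. Slc2a1 at 0.89 and Vegfa at -0.71 are the outermost of the averages.

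Slc2a1, the widely used basal glucose transporter, had the largest difference of the 31 genes. Its values ran from 11.85 over a median of 12.18 to 12.59 on the 9 FL arrays, and from 10.13 over 11.41 to 11.71 on the 9 BM arrays. Each FL array lay above each BM array, and the BM value of 10.13, on LT-HSC c, stood well below the next. The difference was 0.89 ± 0.16, a fold of 1.85 (adjusted p = 0.000476), and it was 0.72 without that array (adjusted p = 0.00145). Slc2a3, a high-affinity glucose transporter, did not pass the test, at 0.03 ± 0.14.

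Hexokinases trap glucose in the cell by phosphorylating it, and of the 3 measured isozymes 1 was called higher and 1 lower. That was 33.3% in each direction, where 15.9% of all genes were higher and 9.26% lower. Hk2, the form that hypoxia and growth signals raise, ran from 9.71 over 10.36 to 10.67 in FL and from 9.23 over 9.72 to 10.29 in BM. The sources overlapped, since the BM MPP arrays ran from 9.86 to 10.29. The highest BM LT-HSC and ST-HSC values, 9.72 and 9.73, also passed the lowest FL value. The difference was 0.56 ± 0.12 (adjusted p = 0.00159). Hk3, a form found mainly in myeloid cells, ran from 8.56 over 9.04 to 9.39 in FL and from 9.07 over 9.68 to 10.22 in BM. Its highest value, 10.22, was on BM LT-HSC c, which also had the highest mean of the neutrophil genes, 13.0. The difference was -0.64 ± 0.15 (adjusted p = 0.00371), and it was -0.52 without that array (adjusted p = 0.0102). Across the BM populations the 2 ran in opposite orders: the group mean of Hk3 was 9.50 in LT-HSC, 9.67 in ST-HSC and 9.83 in MPP, while the neutrophil mean was 12.1, 11.4 and 10.7. The Hk3 means lay within the SD of the LT-HSC arrays, 0.63, of each other. The macrophage mean was 7.89, 7.08 and 7.08 in the same order. The part of neutrophil and macrophage transcripts in the Hk3 difference was not tested. Hk1 differed by -0.56 ± 0.22 and did not pass the test (adjusted p = 0.0691). It was called lower under 4 alternatives: quantile normalization (adjusted p = 0.0403), array weights (0.0217), without the 4 narrow arrays at -0.79 (0.000618) and with the interquartile range as a covariate at -0.84 (6.1e-05).

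The promoter windows of these genes are shown because Slc2a1 and Hk2 were higher and Hk3 lower in FL. Each runs from 250 bases before to 50 bases after a transcript start in RefSeq, build GRCm38.p6, 5′ to 3′ on the gene's strand. Capitals mark the core of the hypoxia response element, ACGTG or GCGTG, on either strand, so that CACGT and CACGC are the same cores read on the other strand. The Slc2a1 window is chr4:119108495-119108794 on the plus strand, the Hk2 window chr6:82774405-82774704 on the minus strand and the Hk3 window chr13:55021336-55021635 on the minus strand.
Slc2a1: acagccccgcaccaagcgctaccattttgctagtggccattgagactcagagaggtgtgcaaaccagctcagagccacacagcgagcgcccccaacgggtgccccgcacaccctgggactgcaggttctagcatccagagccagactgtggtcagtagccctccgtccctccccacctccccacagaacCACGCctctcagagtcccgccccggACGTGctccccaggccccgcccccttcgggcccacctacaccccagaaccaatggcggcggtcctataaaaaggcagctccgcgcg
Hk2: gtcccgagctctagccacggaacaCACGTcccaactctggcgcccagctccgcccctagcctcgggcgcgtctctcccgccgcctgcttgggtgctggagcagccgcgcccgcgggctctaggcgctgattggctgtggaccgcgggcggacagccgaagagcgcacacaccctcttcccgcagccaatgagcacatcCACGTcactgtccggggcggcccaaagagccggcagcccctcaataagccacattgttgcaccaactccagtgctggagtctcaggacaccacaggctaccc
Hk3: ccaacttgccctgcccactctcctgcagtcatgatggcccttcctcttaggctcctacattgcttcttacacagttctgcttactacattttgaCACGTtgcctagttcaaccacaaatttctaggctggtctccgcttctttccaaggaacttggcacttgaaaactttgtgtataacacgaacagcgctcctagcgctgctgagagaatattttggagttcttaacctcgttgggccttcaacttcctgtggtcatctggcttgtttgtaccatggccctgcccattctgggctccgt
The Slc2a1 window held 1 ACGTG at position -36 and 1 GCGTG at -61, counted back from the transcript start to the first base of the match. The Hk2 window held 2 ACGTG cores and the Hk3 window 1. A match is a description of the letters and not of a bound site.

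In upper glycolysis, 3 of 6 measured genes were higher in FL, 2 were lower and 1 was not called. That was 50% higher and 33.3% lower, where 15.9% and 9.26% of all genes were. Phosphofructokinase is the committed step. Its liver-type subunit Pfkl ran from 9.37 over 9.72 to 10.17 in FL and from 8.75 over 9.33 to 9.52 in BM. The sources overlapped through FL ST-HSC a, at 9.37. The difference was 0.52 ± 0.11 (adjusted p = 0.00238). The platelet-type subunit Pfkp ran the other way, from 8.98 over 9.91 to 10.16 in FL and from 9.92 over 10.58 to 10.77 in BM. The sources overlapped when pooled, because ST-HSC were low in both, yet within each population all FL arrays lay below all BM arrays. The difference was -0.56 ± 0.09 (adjusted p = 0.000263). The muscle-type subunit Pfkm was level, at -0.06 ± 0.11, and did not pass the test.

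The 2 phosphofructokinase windows are shown as a pair of isozymes called in opposite directions. The Pfkl window is chr10:78009758-78010057 on the minus strand and the Pfkp window chr13:6648722-6649021 on the minus strand, the second at the start of a RefSeq transcript that is not the outermost of the gene.
Pfkl: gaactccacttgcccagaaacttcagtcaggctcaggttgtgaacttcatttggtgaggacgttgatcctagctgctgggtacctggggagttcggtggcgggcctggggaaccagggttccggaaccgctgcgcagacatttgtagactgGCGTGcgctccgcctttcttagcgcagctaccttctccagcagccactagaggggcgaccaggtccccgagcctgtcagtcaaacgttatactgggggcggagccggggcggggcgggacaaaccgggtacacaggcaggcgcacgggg
Pfkp: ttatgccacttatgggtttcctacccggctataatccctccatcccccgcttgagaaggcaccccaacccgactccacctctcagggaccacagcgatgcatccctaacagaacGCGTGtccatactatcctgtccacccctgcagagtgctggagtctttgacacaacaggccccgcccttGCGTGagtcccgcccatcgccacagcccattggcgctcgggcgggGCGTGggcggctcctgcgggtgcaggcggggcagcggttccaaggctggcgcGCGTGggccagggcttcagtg
The Pfkl window held 1 GCGTG core and the Pfkp window 4, and neither held ACGTG.

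Aldolase cuts fructose bisphosphate into a pair of triose phosphates, and its isozymes Aldoa and Aldoc were called in opposite directions. Aldoa, the main form outside liver and brain, ran from 11.60 over 11.70 to 11.94 in FL and from 11.10 over 11.24 to 11.40 in BM, with no overlap. The difference was 0.49 ± 0.07 (adjusted p = 5.07e-05). Aldoc, the brain form, ran from 7.62 over 8.30 to 8.62 in FL and from 8.37 over 8.87 to 9.17 in BM. The MPP mean was the lowest in each source, and within each population all FL arrays lay below all BM arrays. The difference was -0.58 ± 0.10 (adjusted p = 0.000388). Tpi1, triosephosphate isomerase, was higher by 0.34 ± 0.07. Of the bifunctional enzymes that make and remove a sugar phosphate activator of phosphofructokinase, Pfkfb3 was lower by -0.37 ± 0.09 (adjusted p = 0.00573) and Pfkfb4 did not pass the test, at -0.14 ± 0.09.

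**Figure D2:**
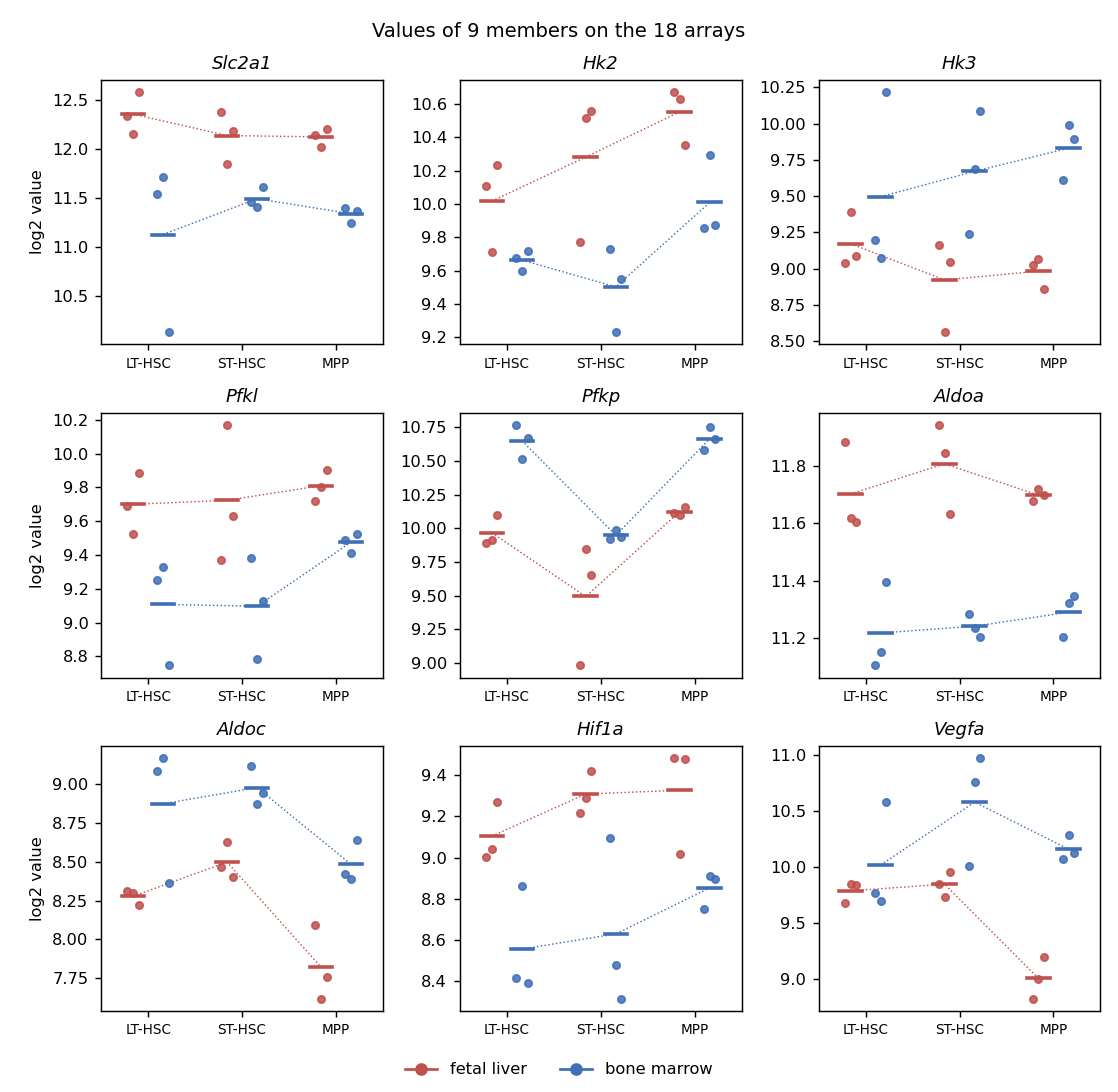
Log2 values of 9 genes on the 18 arrays, by population (x axis) and source (red, fetal liver; blue, bone marrow). Points are single arrays, short bars the means of 3, and dotted lines join the means. Aldoa and Slc2a1 separate the sources in every population, whereas Pfkp and Aldoc do so in the other direction.

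The lower part of the pathway, which gains ATP, held no gene called lower: 4 of the 5 measured were higher in FL. This was 80%, where 15.9% of all genes were called higher. Pgam1, phosphoglycerate mutase, ran from 11.34 over 11.59 to 12.21 in FL and from 10.40 over 11.05 to 11.85 in BM. The sources overlapped because BM MPP, at 11.62 to 11.85, reached the FL ST-HSC and LT-HSC values or passed them. The difference was 0.50 ± 0.09 (adjusted p = 0.000306). Phosphoglycerate kinase Pgk1 was higher by 0.44 ± 0.10, the muscle and widely expressed pyruvate kinase gene Pkm by 0.31 ± 0.06 and Gapdh, glyceraldehyde phosphate dehydrogenase, by 0.28 ± 0.07. In LT-HSC alone Pgk1 was level, with means of 8.21 in FL and 8.19 in BM. In MPP alone the Gapdh means were 12.28 in FL and 12.20 in BM. The probe set of Pkm does not tell its M1 and M2 splice forms apart here. The neuronal enolase Eno2 was the 1 gene of the 31 within the dimmest 30% of all genes and did not pass the test, at 0.19 ± 0.15.

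At the exit from the pathway, 1 of 4 lactate genes and 1 of 4 pyruvate dehydrogenase kinases were called, both higher in FL. That was 25% of each list, where 15.9% of all genes were called higher. Ldha, which favours lactate formation, was higher by 0.46 ± 0.08 (adjusted p = 0.000295), with FL values of 10.74 to 11.11 and BM values of 10.21 to 10.85. Ldhb differed by -0.21 ± 0.16, the lactate transporter Slc16a1 by 0.21 ± 0.09 and the lactate exporter Slc16a3 by 0.37 ± 0.14, and none of the 3 passed the test (adjusted p = 0.0528 for Slc16a3). Slc16a3 was called higher under 6 alternatives, with adjusted p from 0.00104 without the 4 narrow arrays, at 0.60, to 0.0498 with a variance trend, the others being median centring, the filter on dim genes, array weights and the covariate. Pdk3 was higher by 0.33 ± 0.09 (adjusted p = 0.0117), though its MPP means were 10.43 in FL and 10.37 in BM. Pdk1, a classic hypoxia target, differed by 0.31 ± 0.13 and did not pass (adjusted p = 0.0903), nor did Pdk2 at 0.08 ± 0.21 or Pdk4 at -0.10 ± 0.10.

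Of the 5 hypoxia response genes, 3 were higher in FL, 1 was lower and 1 was not called. That was 60% higher and 20% lower, where 15.9% and 9.26% of all genes were. Hif1a ran from 9.01 over 9.27 to 9.48 in FL and from 8.32 over 8.75 to 9.09 in BM. The pooled sources overlapped through BM ST-HSC a, at 9.09, while within each population all FL arrays were above. The difference was 0.57 ± 0.11 (adjusted p = 0.000725). Vegfa, the vascular growth factor that Hif1a can induce, ran from 8.83 over 9.73 to 9.96 in FL and from 9.70 over 10.13 to 10.98 in BM. The lowest values were the 3 of FL MPP, and the highest, 10.98 and 10.76, were BM ST-HSC c and b. The difference was -0.71 ± 0.13, a fold of 1.63 (adjusted p = 0.000602). In LT-HSC alone the Vegfa means were 9.79 in FL and 10.02 in BM, and the arrays overlapped. Bnip3, a mitophagy receptor and hypoxia target, was level at 0.02 ± 0.07 and did not pass the test.

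The oxygen sensors Egln3 and Egln1, both also induced by Hif1a, were called higher in FL in the average. In MPP alone Egln1 was level, with means of 9.70 in FL and 9.71 in BM. Egln3 ran from 9.64 over 10.13 to 10.66 in FL and from 8.09 over 9.56 to 10.50 in BM. Its lowest values were the 3 of BM LT-HSC, and the MPP of both sources overlapped. The difference was 0.56 ± 0.11 (adjusted p = 0.00127). Egln1 was higher by 0.28 ± 0.10 (adjusted p = 0.0379). This was the 1 call of the 19 that was lost on leaving out single arrays: it was lost in 12 of 18 cases, up to an adjusted p of 0.0876 without BM ST-HSC b, where the difference was 0.22. The call was kept in the other 6, without FL LT-HSC b, FL LT-HSC c, FL ST-HSC c, BM ST-HSC a, BM LT-HSC a and BM LT-HSC c.

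The Pgam1 and Egln3 windows are shown because these genes differed both by source and by population. The Pgam1 window is chr19:41911621-41911920 on the plus strand and the Egln3 window chr12:54203825-54204124 on the minus strand.
Pgam1: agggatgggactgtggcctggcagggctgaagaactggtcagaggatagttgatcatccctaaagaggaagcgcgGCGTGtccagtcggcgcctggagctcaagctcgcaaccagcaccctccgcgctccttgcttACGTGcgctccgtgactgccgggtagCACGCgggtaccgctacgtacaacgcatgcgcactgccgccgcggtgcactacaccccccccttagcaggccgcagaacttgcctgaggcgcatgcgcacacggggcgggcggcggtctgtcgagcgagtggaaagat
Egln3: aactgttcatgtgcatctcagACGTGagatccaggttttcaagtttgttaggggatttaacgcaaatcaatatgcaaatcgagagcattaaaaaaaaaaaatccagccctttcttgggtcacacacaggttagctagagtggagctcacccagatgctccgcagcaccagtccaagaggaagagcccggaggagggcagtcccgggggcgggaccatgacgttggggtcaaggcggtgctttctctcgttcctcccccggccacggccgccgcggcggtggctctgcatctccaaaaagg
The Pgam1 window held 2 GCGTG cores and 1 ACGTG, and the Egln3 window 1 ACGTG, at position -229.

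Across the family, 34 of 43 promoter windows of the 30 genes that have one held either core, or 79.1%, against 43.8% of all 32851 windows of that length. Slc2a3 had no window. ACGTG alone stood in 58.1% of the family's windows and in 19.6% of all windows, GCGTG in 51.2% and 32.4%, and the E-box CACGTG, which contains ACGTG, in 16.3% and 7.15%. The family's windows were also richer in CG: the median was 18 CG pairs a window, against 7 in all windows. Among all windows with at least 18 CG pairs, 72.8% held either core and 28.9% held ACGTG. In that set GCGTG stood in 62.2% of windows, above the 51.2% of the family, and the E-box in 11.6%, below the family's 16.3%. The median of that set was 27 CG pairs, against 18 in the family, so it is not matched to the family. By call, either core stood in 83.3% of 18 windows of genes higher in FL, in 87.5% of 8 windows of genes lower in FL and in 70.6% of 17 windows of genes not called.

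Taken array by array, 5 genes had each FL array above each BM array within each of the 3 populations: Slc2a1, Aldoa, Tpi1, Pkm and Hif1a. Of all genes tested, 4.35% did so. Pfkp and Aldoc had each FL array below, as 3.02% of all genes did. When each array was left out in turn, 18 of the 19 calls of the average were kept in all 18 cases, Egln1 being the exception. Without the 4 sgEzh2-described FL arrays 14 calls were kept: those of Pfkfb3, Gapdh, Pgk1, Pdk3 and Egln1 were lost. Without the 4 narrow arrays those of Pdk3 and Egln1 were lost as well.

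**Figure D3:**
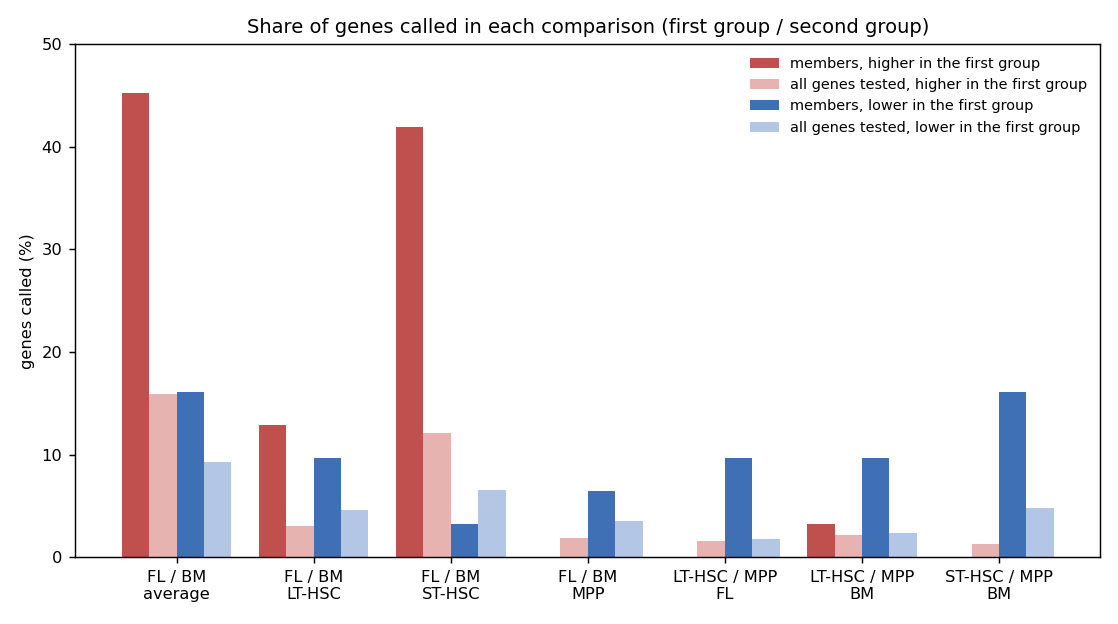
Percent of the measured genes of the family (dark bars) and of all genes tested (light bars) called higher (red) or lower (blue) in the first group of 7 comparisons. In the average of FL against BM, 45.2% of the family was higher, against 15.9% of all genes.

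Within LT-HSC alone, 4 of the 31 genes were higher in FL, where 3.08% of all genes were, and 3 were lower, where 4.58% of all genes were. Slc2a1 read 12.34, 12.15 and 12.59 on the FL arrays and 11.55, 11.71 and 10.13 on the BM arrays. The sources did not overlap, and BM array c stood apart from a and b. The difference of 1.23 ± 0.28 (adjusted p = 0.0086) became 0.73 without it (adjusted p = 0.00558). Egln3 read 9.69, 9.64 and 9.69 in FL and 9.17, 8.65 and 8.09 in BM. FL arrays were nearly level, and the BM arrays were spread below them. The difference was 1.04 ± 0.20 (adjusted p = 0.0021), or 0.76 without BM LT-HSC c (adjusted p = 0.00512).

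The other calls in LT-HSC were Aldoa at 0.49, Tpi1 at 0.44, Pfkp at -0.68, Aldoc at -0.59 and Pfkfb3 at -0.62. Slc2a1 and Egln3 kept their calls when any of the 18 arrays was left out, and these others did not. Pfkfb3 lost its call without FL LT-HSC b, which at 7.16 was the lowest of its group (adjusted p = 0.0874). Pfkp lost it without FL LT-HSC a (adjusted p = 0.0611) or BM LT-HSC a (0.0539). Aldoa lost it without FL array a (adjusted p = 0.102) and without BM array a (0.0695) or b (0.0537). Tpi1 lost it in 4 cases, up to an adjusted p of 0.0765 without BM LT-HSC b, and Aldoc in 15 of 18, up to 0.177 without BM LT-HSC b. The count was 3 without FL LT-HSC a or BM LT-HSC a and 4 without FL LT-HSC b. It was 2, Pfkp and Egln3, without the sgEzh2-described arrays, and 0 when the 6 LT-HSC arrays were fitted alone.

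ST-HSC held most of the calls: 13 of 31 genes were higher in FL, where 12.1% of all genes were, and 1 was lower, where 6.52% of all genes were. Pgam1 read 11.40, 11.65 and 11.59 in FL and 10.90, 10.40 and 10.76 in BM, without overlap, a difference of 0.86 ± 0.15 (adjusted p = 0.000878). Aldoa was higher by 0.57, Ldha by 0.55 and Pkm by 0.46, and with Pgam1 these were the 4 genes that stayed called when any single array was left out. Without the 4 narrow arrays together, Pgam1 kept its call, and Aldoa (adjusted p = 0.0652), Ldha (0.0656) and Pkm (0.189) lost theirs. Pkm and Ldha were also not called under quantile normalization (0.0534 and 0.0719). The other genes called higher were Hk2 at 0.78, Pgk1 at 0.77, Slc16a3 at 0.76, Hif1a at 0.68, Egln1 at 0.64, Pfkl at 0.63, Pdk3 at 0.59, Gapdh at 0.47 and Tpi1 at 0.41, and Vegfa was lower by -0.73.

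These ST-HSC counts rest on few arrays. Leaving out BM ST-HSC b or c left 6 calls each, and leaving out FL ST-HSC b or c left 7 and 8. The share of all genes called fell too. It was 8.84% in either direction without FL ST-HSC b, against 12.1% higher and 6.52% lower with all arrays. Without the sgEzh2-described arrays 5 were called. BM ST-HSC b and c have the narrow spread of values described above. Without the 4 narrow arrays, when BM ST-HSC is a single array taken to vary like the other groups, 4 genes were called (Pgam1, Slc16a3 and, newly, Slc2a1 higher and Hk1 lower), and with the interquartile range as a covariate 7 were. Some differences shrank as well without the narrow arrays: Hif1a to 0.22 (adjusted p = 0.634), Vegfa to -0.16 (0.666), Egln1 to 0.27 (0.465), Pfkl to 0.34 (0.438) and Pgk1 to 0.38 (0.288). With the covariate Hif1a was at 0.37, Vegfa at -0.27, Egln1 at 0.52, Pfkl at 0.27 and Pgk1 at 0.45, and none of the 5 was called. The proliferation genes moved with this comparison: 6 of 7 S phase and 6 of 7 G2M genes were higher in FL ST-HSC. Their part in the result was not tested.

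In MPP, 0 of 31 genes were called higher in FL, where 1.92% of all genes were, and 2 were called lower, where 3.55% were. At an unadjusted p under 0.05, limma gave 9 higher and 5 lower. Counts at this unadjusted threshold, here and below, come without the share of all genes and cannot be set against it. Vegfa read 8.83, 8.999 and 9.20 in FL and 10.07, 10.29 and 10.13 in BM. The groups were far apart, at -1.16 ± 0.23 (adjusted p = 0.00356), and this call was kept in all 18 leave-outs. Aldoc was lower by -0.66 (adjusted p = 0.0335), which was lost in 5 of the 18, up to an adjusted p of 0.173 without FL MPP b. The count was 4 without BM ST-HSC a, 6 without BM LT-HSC c and 1 without any of 5 of the 6 MPP arrays. Neither gene was called without the sgEzh2-described arrays, which leave 1 FL MPP array. Slc2a1, at 0.79 ± 0.28, did not pass the test in MPP (adjusted p = 0.13), nor in ST-HSC at 0.65 ± 0.28 (0.109). Its MPP arrays lay at 12.02 to 12.21 in FL and 11.25 to 11.40 in BM, without overlap. When the MPP arrays were fitted alone, Slc2a1, Slc2a3, Hk2, Pfkl, Aldoa, Pgk1, Ldha and Hif1a were also called higher. Hk1, Hk3 and Pfkp were then also called lower. Slc2a1 was called in MPP as well with array weights, without the narrow arrays and with the interquartile range as a covariate. The sizes in the 3 populations were not tested against each other for each gene.

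The second question was how these genes differ along the path from LT-HSC to MPP. In FL, 0 of 31 were higher in LT-HSC than in MPP, where 1.57% of all genes were, and 3 were lower, where 1.84% were. In BM, 1 was higher, where 2.23% of all genes were, and 3 were lower, where 2.35% were. At an unadjusted p under 0.05, limma gave 3 higher and 8 lower in FL. Egln3 and Pgam1 were lower in LT-HSC in both sources. These differences are LT-HSC minus MPP.

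Egln3 was graded along the path. In BM it read 9.17, 8.65 and 8.09 in LT-HSC, 9.73, 9.42 and 9.56 in ST-HSC and 10.23, 10.50 and 10.30 in MPP. The 3 populations did not overlap, and the order was LT-HSC, ST-HSC, MPP. LT-HSC lay below MPP by -1.71 ± 0.20 (adjusted p = 3.22e-05), or by -1.43 without BM LT-HSC c (adjusted p = 1.29e-05). In FL, LT-HSC at 9.69, 9.64 and 9.69 lay below MPP at 10.40, 10.32 and 10.66, by -0.78 ± 0.20 (adjusted p = 0.0312). The FL ST-HSC values of 9.91, 10.22 and 10.13 lay between them.

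Egln1 followed the same direction in BM, with LT-HSC at 8.99, 8.72 and 9.05 and MPP at 9.72, 9.74 and 9.67. The MPP arrays were almost level, and the difference was -0.79 ± 0.17 (adjusted p = 0.00828). In FL the Egln1 difference of -0.57 ± 0.17 did not pass the test (adjusted p = 0.0688). Pgam1 read 11.52, 11.34 and 11.47 in FL LT-HSC and 12.06, 11.94 and 12.21 in FL MPP, a difference of -0.63 ± 0.15 (adjusted p = 0.0236). In BM it read 10.94, 11.05 and 11.41 in LT-HSC and 11.85, 11.73 and 11.62 in MPP, a difference of -0.60 ± 0.15 (adjusted p = 0.0266). LT-HSC and MPP did not overlap in either source.

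Slc2a3 was the 1 gene higher in LT-HSC than in MPP, and this was in BM. It read 9.71, 9.47 and 10.15 in BM LT-HSC and 8.61, 8.83 and 8.85 in BM MPP, without overlap. The difference was 1.01 ± 0.25 (adjusted p = 0.0252). In FL the values were 9.17, 9.35 and 9.45 in LT-HSC and 9.24, 9.13 and 9.23 in MPP, which overlapped. Beside this, 4 of 8 neutrophil genes were higher in BM LT-HSC than in BM MPP, and their list mean was 11.6 to 13.0 against 10.5 to 11.04 (median difference 1.39). So were 4 of 5 megakaryocyte genes, at a median of 2.25, with a list mean of 10.1 to 10.5 against 8.34 to 8.46, and 2 of 7 macrophage genes. The part of these transcripts in the Slc2a3 difference was not tested. Pfkfb3 was called in FL, with 7.69, 7.16 and 7.87 in LT-HSC and 8.16, 8.26 and 8.13 in MPP, a difference of -0.61 ± 0.16 (adjusted p = 0.0363).

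**Figure D4:**
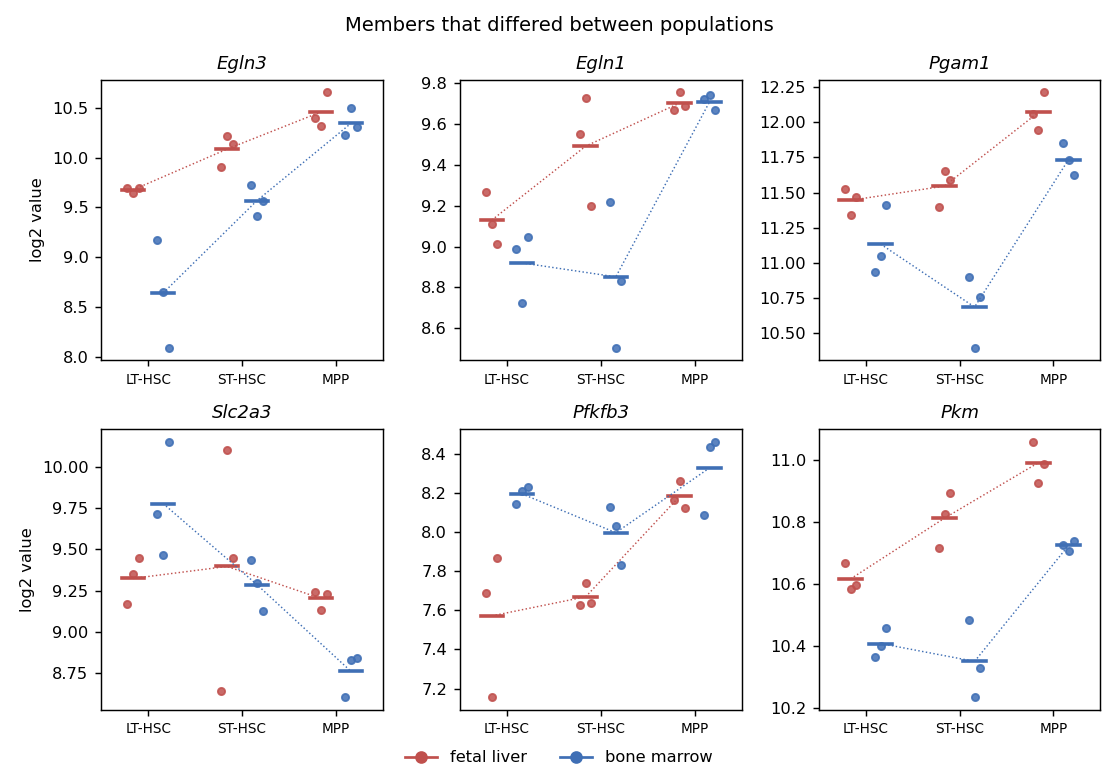
Log2 values of 6 genes on the 18 arrays by population, drawn as points with the mean of 3 arrays as a bar, fetal liver in red and bone marrow in blue. Egln3 in BM goes from 8.09 at its lowest in LT-HSC to 10.50 at its highest in MPP, and Slc2a3 in BM goes down.

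In these comparisons the calls of Egln1 and Egln3 in BM were kept when any 1 array was left out. Slc2a3 lost its call in 5 of 18 cases, without any BM MPP array or without BM LT-HSC a or c, up to an adjusted p of 0.102 without BM MPP a, and at 0.83 without BM LT-HSC c (0.0786). It was also lost without the 4 narrow arrays together, at 0.83 (0.0876). Pgam1 in BM lost it in 5 cases, for each of the BM MPP arrays and for LT-HSC a and b (up to 0.114, without BM MPP a). It was not called under quantile normalization (0.0542), with only the groups compared (0.148) or without the sgEzh2-described arrays (0.0779) either. In FL none of the 3 calls was kept throughout. Egln3 lost its call in 6 cases, all of these arrays (up to 0.157, without MPP c). Pgam1 lost it in 5, all but MPP b (up to 0.131, without MPP c), and Pfkfb3 in 6, namely without LT-HSC a and b, all MPP arrays and FL ST-HSC c (up to 0.177, at -0.41, without LT-HSC b). The FL count went up to 7 without BM ST-HSC a and to 8 without BM LT-HSC c, and it was 0 without the sgEzh2-described arrays.

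Neighbouring populations were compared as well. Between LT-HSC and ST-HSC in FL, 0 genes were called, where 0.0923% of all genes were higher and 0.467% lower. Between ST-HSC and MPP in FL, 0 were called, where 1.58% were higher and 0.677% lower. At an unadjusted p under 0.05, limma gave 1 higher and 3 lower in the former pair and 2 higher and 4 lower in the latter. Without BM LT-HSC c the counts of calls were 1 and 4, and 1 gene was called between ST-HSC and MPP without FL MPP a, FL ST-HSC b, FL LT-HSC b, BM LT-HSC b or BM ST-HSC a. In BM, LT-HSC were above ST-HSC for 1 gene, Pfkp, by 0.70 ± 0.16 (adjusted p = 0.0368), where 1.21% of all genes were higher. They were below for 1 gene, Egln3, by -0.93 ± 0.20 (adjusted p = 0.0204), where 0.502% were lower. The Pfkp call was lost in 10 of 18 leave-outs, up to 0.141 without BM ST-HSC c, and the Egln3 call without that same array (0.0873). Beside the Pfkp call, 3 of 5 megakaryocyte genes were higher in BM LT-HSC than in BM ST-HSC, and their part was not tested.

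BM ST-HSC lay below BM MPP for 5 genes and above for 0, where 4.79% of all genes were lower and 1.31% higher. At an unadjusted p under 0.05, limma gave 11 lower and 3 higher. Pgam1 was lower by -1.05, Egln1 by -0.86, Egln3 by -0.78, Pfkp by -0.72 and Pkm by -0.37. Pgam1 and Egln1 were kept in all leave-outs. The count was 2 without BM ST-HSC b, BM ST-HSC c or BM MPP b, 3 without BM MPP a or c, 10 without BM ST-HSC a and 1 without the 4 narrow arrays. In the same comparison 5 of 7 S phase and 5 of 7 G2M genes were lower, and their part was not tested. In BM, Pfkp read 9.92, 9.99 and 9.94 in ST-HSC, below both LT-HSC at 10.77, 10.51 and 10.67 and MPP at 10.58, 10.75 and 10.66. In FL too the Pfkp mean was lowest in ST-HSC, at 9.49. The ST-HSC mean was also the lowest in BM for other genes. Pgam1 means were 11.13 in LT-HSC, 10.69 in ST-HSC and 11.73 in MPP, and Pdk3 means 10.33, 9.93 and 10.37.

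Whether the step from LT-HSC to MPP differed between the sources was tested directly as FL minus BM. Of the 31 genes, 0 were called, where 0.215% of all genes were higher and 0.328% lower. At an unadjusted p under 0.05, limma gave 2 in each direction. The smallest adjusted p was that of Egln3, at 0.92 ± 0.28 (0.213, and 0.00376 before adjustment), and Vegfa came next at 0.92 ± 0.32 (adjusted p = 0.363). Egln3 was called without BM LT-HSC a (1.19, adjusted p = 0.0166) and Vegfa without BM LT-HSC c (1.21, adjusted p = 0.0353). The Slc2a3 difference was -0.89 ± 0.35 and did not pass (adjusted p = 0.527).

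Variation between replicate arrays was not even. The median SD of the 31 genes was 0.299 in BM LT-HSC, against 0.236 over all genes, and 0.0789 in FL MPP, against 0.113. In BM LT-HSC the widest gene was Pdk2, with an SD of 0.986. Array c of that group read 7.74 for Pdk2 where a and b read 9.59 and 9.25. It read 7.20 for Pdk1 where both others read 8.38.

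Other genes of the pathway were taken from lists by role. In the average of FL against BM, 4 of 22 other glycolysis genes were higher and 5 lower, or 18.2% and 22.7%, where 15.9% and 9.26% of all genes were. Galm, which flips glucose between its anomers, was lower by -0.53 and Fbp1, the gluconeogenic fructose bisphosphatase, by -0.46. The ADP-dependent glucokinase Adpgk was lower by -0.43, while Pgm1, phosphoglucomutase, and the pyruvate transporter Slc16a7 were higher by 0.42 each. The Adpgk means were 7.84 in FL and 8.93 in BM for LT-HSC, 7.80 and 7.87 for ST-HSC and 8.10 and 8.22 for MPP. Of 8 pentose phosphate genes, 1 was higher, or 12.5%, Rpe at 0.36, and 0 lower. Of 10 genes for pyruvate entry into the mitochondrion, 3 were higher, or 30%, and 0 lower. These were the pyruvate dehydrogenase subunits Dlat at 0.56 ± 0.09, Dld at 0.51 ± 0.09 and Pdhx at 0.48 ± 0.14.

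Of 33 other hypoxia genes, 8 were higher and 7 lower, or 24.2% and 21.2% beside those same shares of all genes, and the largest differences exceeded those of the main family. Hif3a, a relative of Hif1a, was higher by 1.91 ± 0.16 and the hypoxia target Ankrd37 by 1.34 ± 0.07. Ndrg1, induced by hypoxia and stress, was lower by -2.63 ± 0.13 and the cell cycle inhibitor Cdkn1a by -1.58 ± 0.13. From LT-HSC to MPP, Epas1, which encodes the HIF-2 alpha subunit, was higher in LT-HSC in both sources, by 0.52 ± 0.12 in FL and 1.01 ± 0.12 in BM. Of 12 regulators, 5 were higher in FL and 2 lower, or 41.7% and 16.7%. Mycn was higher by 1.32 ± 0.14 and Myc, its relative and an activator of glycolysis genes, lower by -0.58 ± 0.11. Rptor and Mtor, of the nutrient-sensing kinase complex, were higher by 0.53 each. Meis1, a transcription factor described as an activator of Hif1a in stem cells, was lower by -0.40 ± 0.14. Its group means in FL and BM were 10.77 and 10.83 in LT-HSC, 10.67 and 11.10 in ST-HSC and 9.78 and 10.50 in MPP. In FL, Meis1 was higher in LT-HSC than in MPP by 0.99 ± 0.24 and Myc lower by -1.05 ± 0.19.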

How the data were processed

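Sorted mouse LT-HSC, ST-HSC and MPP from fetal liver and bone marrow were measured on 18 Affymetrix arrays, 3 for each of 6 groups taken from the titles. The authors deposited 1 table of log2 values per probe set. The submitters' processing notes name R 3.5.01 and oligo, and for background correction and normalization no method was found (not given in the sources used here). That values are log2 was judged by their range. Values were used as deposited, without rescaling or a filter on low values. Of 22203 probe sets, 19572 carry a single gene symbol in the platform annotation. The probe set with the highest mean over the 18 arrays stood for a gene, which left 19505 genes.

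Group means and 11 contrasts were estimated by lmFit and eBayes (limma 3.58.1, R 4.3.3) from the 18 arrays together, with Benjamini-Hochberg adjustment over 19505 genes and a call at an adjusted p under 0.05. Precision is set by how many arrays there are, with a median standard error of 0.0967 for the average of FL against BM and 0.167 for a pair of groups. The fit was tested on simulated data. The replicate letters were not used to pair the samples in the main fit. For genes called in the average with a difference of 0.5 or more, ranges are given by source, mostly with medians. Array values are given for genes called at that size in LT-HSC against MPP or in the interaction. The others are given by differences, ranges and counts. Of each other list up to 4 of the called genes with the largest differences were eligible for naming. Genes needed to explain a small count were eligible too. The family and the lists were chosen with earlier results of these data known. Alternatives covered scaling, dim genes, probe sets, the variance model, array weights, the groups fitted, a replicate block, a fold minimum and arrays left out. The array interquartile range as a covariate was chosen after seeing the data. Promoter windows were taken from RefSeq, GRCm38.p6, and matched by symbol for 30 of 31 genes.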

Additional observations from a re-analysis of the deposited data

How the results depend on the processing

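No alternative turned the direction of a call. The counts of called genes, out of 31, changed as follows. Counts under alternatives or with arrays left out, here and above, mostly come without the share of all genes called under that setting. They cannot be set against it, and a change in a count is not particular to these genes. In the average of FL against BM, 19 calls became 3 with a fold of at least 1.5 and stayed between 14 and 24 under the other settings. In LT-HSC, 7 calls became 0 with only the groups compared and 2 without the sgEzh2-described arrays. In ST-HSC, 14 became 23 with array weights, 8 with only the groups compared, 9 with the fold minimum, 5 without the sgEzh2-described arrays, 4 without the narrow arrays and 7 with the interquartile range as a covariate. In MPP, 2 became 4 without the dimmest 30% of genes, 14 with array weights, 13 with only the groups compared, 0 without the sgEzh2-described arrays, 7 without the narrow arrays and 9 with the covariate.

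For LT-HSC against MPP in FL, 3 became 8 with array weights, 5 with only the groups compared, 0 without the sgEzh2-described arrays, 5 without the narrow arrays and 8 with the covariate. For ST-HSC against MPP in FL, 0 became 2 with median centring, 1 with quantile normalization, 2 without the dimmest genes, 2 with a variance trend, 5 with array weights, 4 with only the groups compared, 1 with the replicate block, 5 without the narrow arrays and 5 with the covariate. In BM, LT-HSC against MPP went from 4 to 7 with array weights. LT-HSC against ST-HSC went from 2 to 1 with median centring, 11 with array weights, 0 with only the groups compared, 1 without the sgEzh2-described arrays and 0 without the narrow arrays. ST-HSC against MPP went from 5 to 3 with quantile normalization, 20 with array weights, 3 without the sgEzh2-described arrays and 1 without the narrow arrays. The interaction went from 0 to 1 with array weights and without the narrow arrays (Vegfa) and to 2 with the covariate (Vegfa and Egln3). The causes of these changes were not tested, and the settings that leave arrays out also have fewer arrays.

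With 1 array left out, counts ranged from 18 to 21 in the average, 3 to 8 in LT-HSC, 6 to 20 in ST-HSC and 1 to 6 in MPP. They ranged from 0 to 8 for LT-HSC against MPP in FL, 0 to 1 for LT-HSC against ST-HSC in FL, 0 to 4 for ST-HSC against MPP in FL, 2 to 4 for LT-HSC against MPP in BM, 0 to 3 for LT-HSC against ST-HSC in BM, 2 to 10 for ST-HSC against MPP in BM and 0 to 1 for the interaction.

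Over all 6 groups, deviations of same-letter arrays correlated at -0.464 to 0.534, with 11 of 45 pairs over 0.1. The median was -0.033, against 0.016 for arrays of other letters. Of the 18 arrays, 6 correlated best with an array of their own letter. The pairs include FL with BM arrays, so pairing by letter within a source was not tested. The replicate block likewise put the FL and BM arrays of a letter together. With the letter as a replicate block the average kept its 19 calls and ST-HSC had 15, Hk3 being added. In LT-HSC against MPP in FL the count stayed 3, but Pfkfb3 was lost (adjusted p = 0.056) and Vegfa gained, and Vegfa was the 1 gene gained between ST-HSC and MPP in FL. No other call changed with the block.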
